A study of Mus musculus with 2 samples.

Results

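The interleukin-1 (IL-1) family genes examined here were 9 in number: the ligands Il1a, Il1b, Il18 and Il33, the receptor antagonist Il1rn, the signalling receptor Il1r1, its co-receptor Il1rap, the decoy receptor Il1r2, and Il1rl1, the receptor for IL-33. They were taken by gene symbol from the 32285 genes of the count tables, of which 26229 had a count in the cells kept, and all 9 were detected in both libraries. The cells came from the dorsal skin of male C3H/HeN mice in a model of androgenetic alopecia (AGA), in which testosterone propionate (TP) was injected under the skin at 0.5 mg per day. Treatment began at 7 weeks of age and skin was taken at 9 weeks, and vehicle was given to the control group. In each group the skin of 15 mice was pooled, dissociated with collagenase and passed over a density gradient, and each pool gave 1 droplet library, so the design held 1 control and 1 TP library and no measure of the spread between animals. A group given TP with an antibody is not analysed here. The assay counts unique molecular identifiers (UMIs), tags that let copies of the same captured transcript be counted once. With 1 library per group there is no test and no p-value below, every interval is a 95% interval for counting error only, and a difference between the libraries cannot be told apart from a difference between pools, dissociations or runs.

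IL-1α and IL-1β act on the same receptor, IL1R1, which signals once it has recruited the co-receptor IL1RAP. The antagonist encoded by Il1rn occupies IL1R1 without recruiting the co-receptor, and IL1R2 binds IL-1 but lacks the cytoplasmic domain needed to signal. IL-1α and IL-33 are held inside cells and released on damage, whereas IL-1β and IL-18 are made as precursors that are cut by caspase-1, and epidermal keratinocytes are a known source of IL-1α, IL-18, IL-33 and the antagonist. UMIs measure transcripts only and not the cut or released proteins.

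Il1r2, Il1r1 and Il1rl1 lie in this order on mouse chromosome 1 in the GRCm38 build, at chr1:40084692-40125230, chr1:40222480-40316201 and chr1:40404864-40465418. The ligand genes Il1a (chr2:129299609-129310186) and Il1b (chr2:129364569-129371164) are on chromosome 2, and Il1rn lies on the same chromosome at chr2:24336860-24351491. Il18 is at chr9:50554700-50581841, Il1rap at chr16:26581509-26730128 and Il33 at chr19:29925113-29960718. The 250 bases before an annotated transcript start are shown for 3 ligand genes and the antagonist, because these are the member promoters in which a searched motif lay close to the start or was shared by a ligand and its antagonist. The sequences are those of RefSeq on GRCm38.p6, written 5′ to 3′ on the strand of the gene, and the capitals mark the TATA box letters TATAAA or the AP-1 letters TGANTCA, where N is any base.
Il1a, chr2:129309973-129310222, minus strand: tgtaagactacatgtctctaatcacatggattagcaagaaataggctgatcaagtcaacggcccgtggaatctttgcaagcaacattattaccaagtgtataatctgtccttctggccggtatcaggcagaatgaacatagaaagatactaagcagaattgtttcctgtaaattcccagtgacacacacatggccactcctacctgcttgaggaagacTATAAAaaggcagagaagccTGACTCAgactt
Il1b, chr2:129371140-129371389, minus strand: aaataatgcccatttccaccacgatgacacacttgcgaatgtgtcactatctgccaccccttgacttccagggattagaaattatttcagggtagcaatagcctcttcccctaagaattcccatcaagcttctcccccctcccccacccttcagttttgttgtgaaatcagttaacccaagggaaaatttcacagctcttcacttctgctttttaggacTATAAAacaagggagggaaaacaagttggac
Il33, downstream start, chr19:29945540-29945789, plus strand: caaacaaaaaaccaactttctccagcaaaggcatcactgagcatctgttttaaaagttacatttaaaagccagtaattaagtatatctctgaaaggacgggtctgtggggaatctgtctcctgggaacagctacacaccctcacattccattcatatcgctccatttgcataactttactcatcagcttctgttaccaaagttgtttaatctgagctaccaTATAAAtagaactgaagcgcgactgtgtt
Il1rn, upstream start, chr2:24336610-24336859, plus strand: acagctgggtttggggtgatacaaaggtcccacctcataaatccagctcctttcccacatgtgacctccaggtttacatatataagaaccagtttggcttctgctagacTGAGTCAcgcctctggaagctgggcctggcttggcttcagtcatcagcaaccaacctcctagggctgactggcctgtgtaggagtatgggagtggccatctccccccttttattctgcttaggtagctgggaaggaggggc

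The letters TATAAA lay from base 32 to base 27 before the start in Il1a, from base 31 to base 26 in Il1b and from base 29 to base 24 in Il33. Counting both strands and all of the 250 bases, 5 of 14 member promoters held TATAAA, against 12.4% of the 32851 mouse promoters in the table. The AP-1 letters, which read the same on both strands, were found in Il1a from base 12 to base 6 and in Il1rn from base 141 to base 135 before the start, and in 6.75% of all promoters. The consensus of the transcription factor NF-kB was found in 1 member promoter, that of the downstream start of Il1r1, and in 3.9% of all promoters. The androgen receptor half-site AGAACA was found in Il18 and Il1r1 and in 16.1% of all promoters. A match describes the letters only. Other starts are annotated for Il1r1, Il1rn, Il33 and Il1rl1. Parts of the windows of Il1a, Il1b and Il1rap lie inside the annotated range of the gene. The windows of Il1r2, Il1r1 and Il1rl1, and of the downstream starts of Il33 and Il1rn, lie wholly inside it. Counts from the 3′ ends of transcripts do not show which start was used.

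The control library held 45709 barcodes and 130999979 UMIs, and the TP library 25931 barcodes and 166929585 UMIs. Limits on genes and mitochondrial counts and the removal of doublets kept 39076 control and 18542 TP cells with medians of 2046 and 4809.5 UMIs per cell, and 303 barcodes occurred in both libraries. Mitochondrial counts alone removed 7.581% of control and 22.641% of TP barcodes. Cells were clustered without the members and the other genes of the IL-1 pathway, and a cluster was named after the class whose markers it held, written as "-like". IFE stands for the interfollicular epidermis, the surface epithelium between hair follicles, DF for dermal fibroblast and DPC for dermal papilla cell. For each class the UMIs of a gene are given per 1000000 UMIs of that class (CPM), and the ratio is TP CPM over control CPM. The libraries differed in their makeup: inner root sheath-like cells numbered 8765 in control and 1297 in TP, DF-like cells 183 and 678, outer bulge-like cells 593 and 1480, and neutrophil-like cells 8 and 41. All the markers of the epidermal, fibroblast, macrophage and neutrophil classes were detected in both libraries, while Ccr7 was at 0 in control dendritic and Langerhans-like cells and Mylk4 in dermal sheath-like cells.

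Over all kept cells, 5 of the 9 members were at least 2-fold higher in TP, as were 10.0% of the 23762 genes compared, and none was at least 2-fold lower, as 15.3% of genes were. The members higher in TP were Il1a, Il1b, Il1rn, Il18 and Il1rl1. The median log2 ratio was 1.15 over the members and -0.28 over all genes. The members were chosen with earlier results of these data known, so these counts are description only. When every class was given the share of UMIs it had in the control library, 0 members reached 2-fold: the ratios became 1.63 for Il1a, 1.79 for Il1b, 1.42 for Il1rn, 1.39 for Il18 and 1.41 for Il1rl1. A sum over the library mixes the number of cells of each class with the transcripts per cell, so the members are described below within classes.

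**Figure D1:**
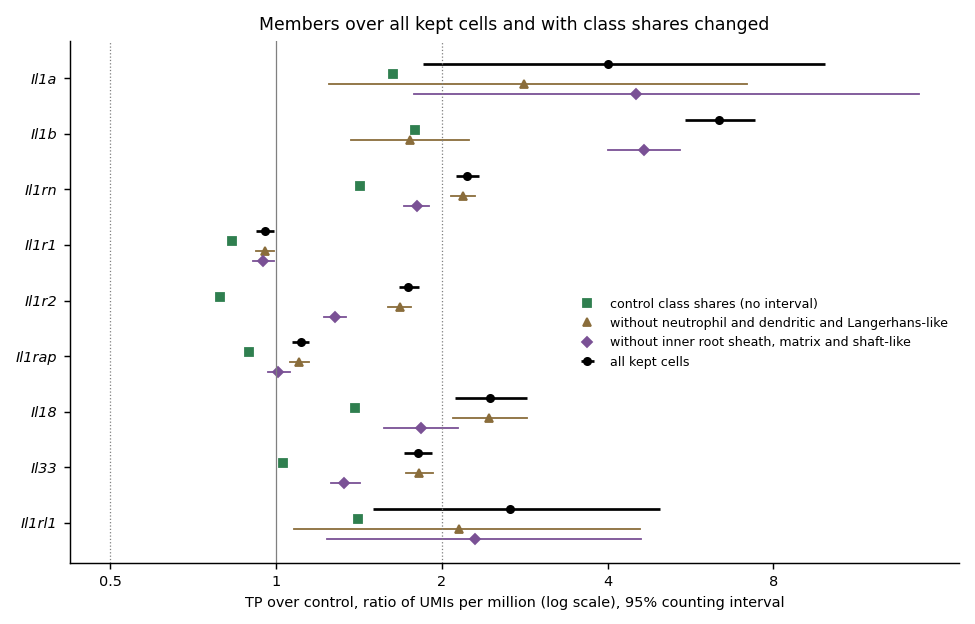
TP over control ratio of each member on a log axis, with 95% intervals for counting error, over all kept cells and with parts of the cells left out, and without an interval for class shares held at those of the control. Il1b has a ratio of 6.38 over all kept cells and 1.75 without neutrophil-like and dendritic and Langerhans-like cells, and with control class shares no member reaches 2.

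Within classes, 69 pairs of a member and a class had at least 20 UMIs in both libraries together and at least 50 cells in each. Of these, 10 were at least 2-fold higher in TP, against 4.67% of the 169912 pairs of any gene and class, and 6 were at least 2-fold lower, against 9.88%. The minimum applied to the sum of both libraries, and 7 of the 10 higher pairs had under 20 UMIs in control and passed only through TP, so their count carries no weight. Among the lower pairs, that of Il1r1 in melanocyte-like cells had 1 TP UMI and passed only through control. With 20 UMIs asked of each library, 3 of 47 pairs were higher, against 2.66% of the 121618 pairs of any gene and class, and 5 were lower, against 6.34%. Il18 made up 5 of the 10 higher pairs, in IFE granular-like, IFE suprabasal-like, upper hair follicle-like, DF-like and macrophage-like cells. Of these only the IFE granular-like pair had at least 20 UMIs in control. IFE granular-like cells held 4 of the 6 lower pairs. Neutrophil-like, dendritic and Langerhans-like, Schwann-like and skeletal muscle-like cells had under 50 cells in at least 1 library, so they did not enter this count, and where they are described it is by their values only.

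**Figure D2:**
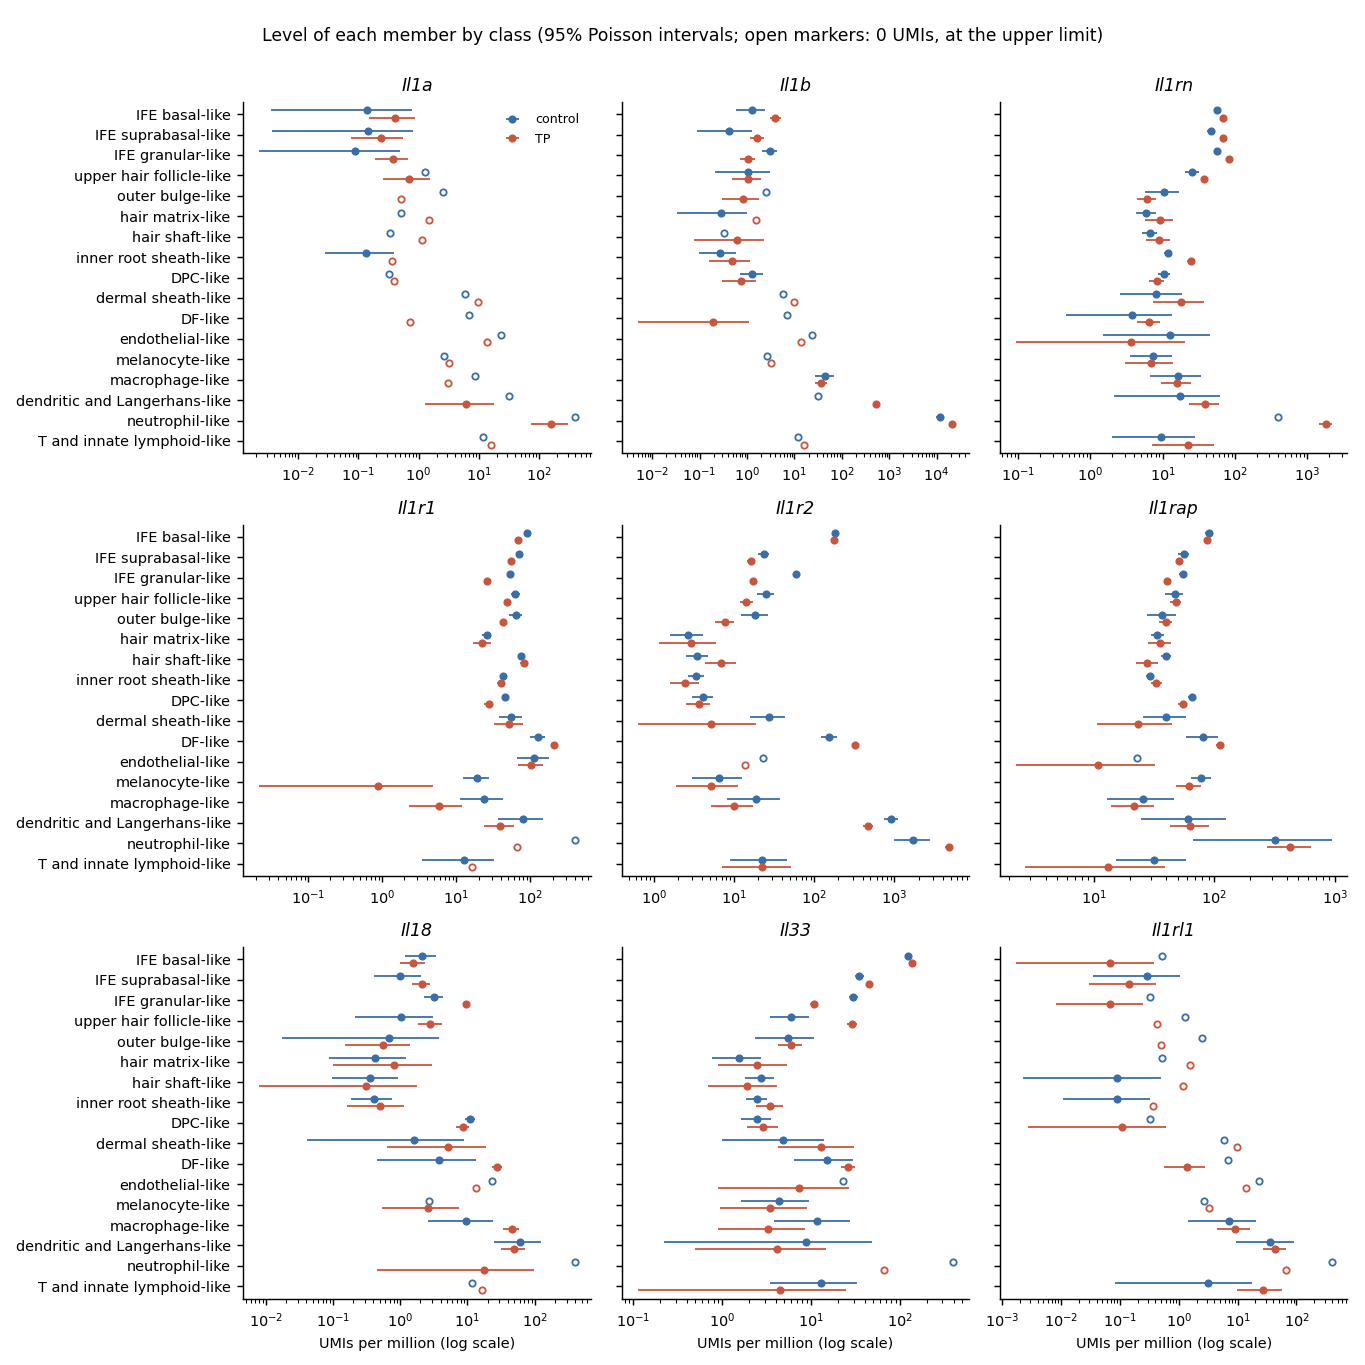
Level of each member, a panel each, in UMIs per 1000000 UMIs of the class on a log axis, for control and TP, with bars for 95% Poisson intervals and open points at the upper limit where a class had 0 UMIs. Il33 and Il1r2 stand highest among keratinocytes in IFE basal-like cells, Il1r1 among named classes in DF-like cells, and Il1b in neutrophil-like cells.

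Il1b, the gene of IL-1β, gave 209 UMIs in the control library (1.96 CPM) and 1662 in the TP library (12.5 CPM), a ratio of 6.38 (5.52 to 7.41). Most of these UMIs came from very few cells. The neutrophil-like cells supplied 52.6% of the Il1b UMIs of the control library from 8 cells and 71.5% of those of the TP library from 41 cells. Per 1000000 UMIs of the class they held 11818 in control against 21198 in TP (ratio 1.79, 1.47 to 2.2). Il1b was found in 8 of 8 control and 39 of 41 TP neutrophil-like cells, with medians of 13 and 17 UMIs per cell. Leaving out neutrophil-like cells gave library levels of 0.93 and 3.57 CPM (ratio 3.84, 3.08 to 4.81).

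The second source of Il1b in TP was the dendritic and Langerhans-like class, which had 0 UMIs in 49 control cells and 258 UMIs in 122 TP cells (528 CPM). The lower 95% limit of the ratio was 16.2. All 258 UMIs lay in the subcluster led by Cd74, Retnla and Cxcl2, which held 23 control and 101 TP cells, and there in 27 cells, of which the top 5 supplied 162 UMIs. Its marker score was 5.26 for the dendritic and Langerhans list and 4.66 for the macrophage list. Lyz2, a macrophage marker, was also among its leading genes, so its name is not firm. The subcluster that holds Cd207, the gene of langerin in Langerhans cells, had no Il1b UMI in either library. Without neutrophil-like and dendritic and Langerhans-like cells, the library levels were 0.931 and 1.63 CPM, a ratio of 1.75 (1.37 to 2.24). Macrophage-like cells had 44.6 CPM in control, 19 UMIs in 4 cells, and 37.2 CPM in TP, 45 UMIs in 10 cells (ratio 0.834, 0.478 to 1.51), an interval that spans 1.

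In keratinocytes Il1b was sparse. In IFE basal-like cells it went from 9 UMIs (1.26 CPM) to 59 UMIs (3.98 CPM), a ratio of 3.16 (1.56 to 7.24), in a class where 2.39% of genes reached 2-fold in that direction. The TP UMIs were spread over 41 of 3113 cells, 23 of them in 5 cells. IFE suprabasal-like cells had 3 and 35 UMIs (0.427 and 1.65 CPM, ratio 3.86, 1.22 to 19.6), the TP UMIs in 33 cells, and 2.25% of genes there reached 2-fold upward. The basal-like and suprabasal-like pairs both had under 20 control UMIs and passed the minimum only through TP. Setting them beside these shares of genes therefore carries no weight. With finer clusters the suprabasal ratio became 0.653. IFE granular-like cells went the other way, from 3.01 CPM to 1.06 CPM (34 and 31 UMIs, ratio 0.354, 0.21 to 0.593), but 29 of the 34 control UMIs lay in 5 cells, and without the 5 leading cells of each library the ratio was 1.71. After thinning every cell to 1000 UMIs, a UMI of Il1b was found in 0.11% of control and 0.326% of TP IFE basal-like cells, against 0.0357% and 0.0789% of inner root sheath-like cells, taken as the class for comparison. Before thinning, 9 control and 41 TP IFE basal-like cells and 5 inner root sheath-like cells in each library held an Il1b UMI. The thinned shares therefore rest on very few cells. The medians before thinning were 2073.5 and 3623 UMIs in IFE basal-like and 2042 and 4348 in inner root sheath-like cells.

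**Figure D3:**
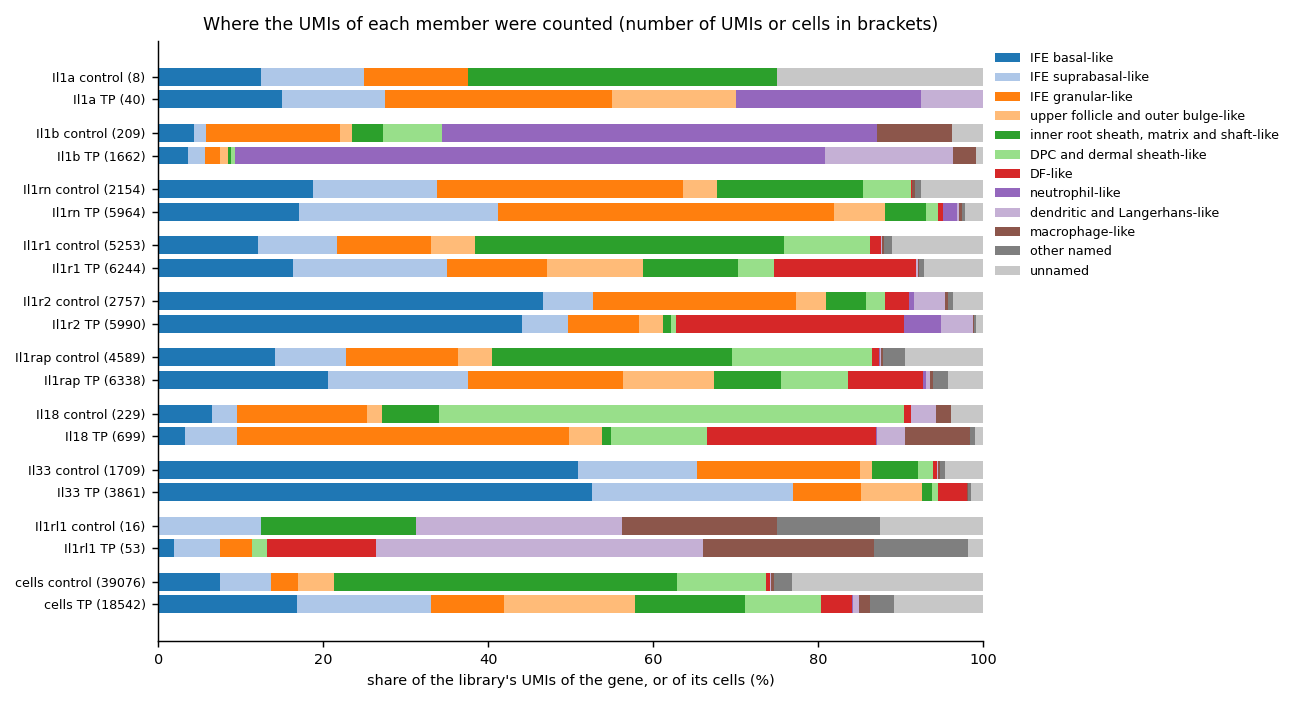
Share of each member's UMIs that came from each class, control beside TP, in percent of the library's UMIs of that gene, with the share of cells per class in the lowest bars. Neutrophil-like cells supply 52.6% of Il1b in control and 71.5% in TP, and the segment of DPC-like and dermal sheath-like cells, which is nearly all DPC-like for Il18, is the widest for Il18 in control.

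Il1a, the gene of IL-1α, was close to the limit of detection. It gave 8 UMIs in control (0.0752 CPM) and 40 in TP (0.302 CPM), a ratio of 4.01 (1.85 to 9.93), each of the 8 control UMIs in a different cell. In TP, 11 UMIs came from IFE granular-like and 9 from neutrophil-like cells, and no class had enough UMIs for a class ratio. At this depth the level of Il1a in keratinocytes could not be compared between the libraries.

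Il1rn, the antagonist, stood highest in the 3 IFE classes among named classes with at least 50 cells of a library. It gave 2154 UMIs in control and 5964 in TP, 20.2 and 45.0 CPM (ratio 2.22, 2.12 to 2.34). In control it stood at 56.9 CPM in IFE granular-like and 56.5 CPM in IFE basal-like cells, whose intervals overlapped, then 46.2 CPM in IFE suprabasal-like and 25.6 CPM in upper hair follicle-like cells. Among TP classes with at least 50 cells the IFE granular-like cells stood apart at 83.6 CPM (643 UMIs in control, 2433 in TP, ratio 1.47, 1.34 to 1.6), with IFE basal-like cells at 68.8 CPM and suprabasal-like cells at 67.8 CPM. Each of the 3 IFE classes was therefore higher in TP by less than 2-fold, and the IFE basal-like ratio was the smallest at 1.22. When the level of inner root sheath-like cells of the same library was subtracted, the ratio was 1.3 in granular-like cells, stayed above 1 in suprabasal-like cells and became 0.984 in IFE basal-like cells. That level was itself 11.9 CPM in control and 24.9 CPM in TP, so the subtraction took more from TP and lowers these ratios by construction. The suprabasal-like cluster led by Skint5 and Ghr, with 1548 of 2411 control and 1425 of 3011 TP cells, had 35.2 and 56.9 CPM, and that led by Krt1 and Krt10 had 55.1 and 71.9 CPM. The fraction of thinned IFE granular-like cells with an Il1rn UMI was 5.25% in control and 7.64% in TP, against 36.7% and 63.8% before thinning at medians of 7909 and 15013 UMIs. The granular markers of this class also differed between the libraries, as given below.

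Inner root sheath-like cells, the inner lining of the growing follicle, had 11.9 CPM of Il1rn in control and 24.9 CPM in TP (264 and 252 UMIs, ratio 2.1, 1.76 to 2.5), in a class where 5.15% of genes reached 2-fold upward. Their 4 clusters differed: the cycling cluster led by Cdh6 and Knl1 had 8.1 and 8.28 CPM, the Krt71 and Krt25 cluster 25.1 and 30.8 CPM, the Prr9 and Krt73 cluster 8.69 and 20 CPM, and the Prr9 and Crym cluster 5.33 and 30.3 CPM. Without the 5 leading cells of each library the ratio was 1.97. After the level of this class was subtracted, the upper hair follicle-like ratio of Il1rn was 0.921, against 1.47 (1.14 to 1.91) from 25.6 and 37.5 CPM, and that over all kept cells 2.4. TP outer bulge-like cells, at 6.01 CPM, and DF-like cells, at 6.44 CPM, lay below the subtracted level. Free RNA was not measured, and its part in that level was not tested. Il1rn in neutrophil-like cells was at 0 UMIs in 8 control cells and 101 UMIs in 41 TP cells (1801 CPM), and the lower 95% limit of the ratio was 4.46.

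The share of the antagonist among Il1a, Il1b and Il1rn UMIs does not depend on the class total. It was 90.8% in control (89.6 to 92.0) and 77.8% in TP (76.9 to 78.7) over all kept cells. Without neutrophil-like cells the shares were 95.3% and 92.1%, and without dendritic and Langerhans-like cells as well they were 95.3% (94.3 to 96.1) and 96.0% (95.5 to 96.5), with intervals that overlapped. In IFE basal-like cells the share was 97.6% in control and 94% in TP, with intervals that did not overlap (95.6 to 98.8 and 92.4 to 95.3). Of the 59 TP Il1b UMIs there 23 lay in 5 cells, 15 of them in 1 cell. The share without these cells was not computed. In IFE granular-like cells it was 94.8% and 98.3%, but 29 of the 34 control Il1b UMIs lay in 5 cells, and without the Il1b UMIs of the 5 leading cells of each library the shares were 99.1% (98 to 99.7) and 98.7% (98.1 to 99.1), with intervals that overlapped. Neutrophil-like cells had 0 of 110 UMIs in control and 7.78% in TP, dendritic and Langerhans-like cells 6.79% in TP, and macrophage-like cells 26.9% and 29.7%.

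Il1r1, the signalling receptor, had nearly the same level in both libraries, with 5253 UMIs in control (49.4 CPM) and 6244 in TP (47.1 CPM), a ratio of 0.954 (0.92 to 0.99) that turned to 1.13 with the TMM factor, 1.17 with the level of inner root sheath-like cells subtracted and 1.47 with means of ln values. Among named classes DF-like cells led both libraries, with 125 CPM from 67 UMIs in control and 210 CPM from 1075 UMIs in TP (ratio 1.67, 1.31 to 2.17). Endothelial-like cells followed at 113 and 103 CPM, and in control their interval overlapped that of DF-like cells. A cluster without a name, led by the smooth muscle genes Myh11, Tagln and Acta2, had 188 CPM in control and 255 CPM in TP. Hair shaft-like cells held 74.6 and 82.8 CPM and inner root sheath-like cells 42.9 and 39.5 CPM. Il1r1 was lower in TP in IFE basal-like cells, at 89.3 and 68.7 CPM, and in DPC-like cells, at 45.1 and 27.3 CPM (ratio 0.605, 0.518 to 0.704). The IFE basal-like ratio of 0.77 turned to 1.09 with means of ln values. The larger DPC-like clusters had 47.7 and 24.9 CPM where Fgf10 and Rspo3 led and 42.2 and 33.7 CPM where Ndnf and Corin led. A further DPC-like cluster, led by Gpc5 and Dkk2, held 33 control and 296 TP cells, and its level is not given. In melanocyte-like cells there were 26 control UMIs and 1 TP UMI (19.1 and 0.869 CPM, ratio 0.0456, 0.00111 to 0.277), in a class where 12.9% of genes were at least 2-fold lower. This pair passed the minimum only through control, so setting it beside that share carries no weight.

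Il1r2, the decoy receptor, was highest in neutrophil-like, dendritic and Langerhans-like, IFE basal-like and DF-like cells. It gave 2757 UMIs in control (25.9 CPM) and 5990 in TP (45.2 CPM), a ratio of 1.74 (1.67 to 1.82), but 0.792 with control class shares. IFE basal-like cells held 180 CPM in control and 178 CPM in TP (1287 and 2638 UMIs, ratio 0.987, 0.923 to 1.06). After thinning, 14.4% of IFE basal-like cells had a UMI in each library, against 0.345% and 0.316% of inner root sheath-like cells. Among the basal clusters, the Krt14 and Krt15 cluster had 253 and 232 CPM, the Sox6 and Cdh13 cluster 113 and 156 CPM, and the cycling cluster 104 and 78.7 CPM. Suprabasal-like cells were far lower, and granular-like cells differed strongly between the libraries, as given below.

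In DF-like cells Il1r2 had 154 CPM in control from 82 UMIs and 324 CPM in TP from 1660 UMIs (ratio 2.11, 1.69 to 2.67), where 6.09% of genes reached 2-fold upward. The share of thinned DF-like cells with a UMI was 8.05% and 19.9%. The fibroblast subclusters were filled differently in the libraries: the subcluster with the lowest depth, led by Col1a1, Col1a2 and Itgbl1, held 79 of 183 control and 52 of 678 TP cells, and the Sparc and Tnfaip6 subcluster 16 and 179. Within subclusters Il1r2 had 427 and 358 CPM in the Sparc and Tnfaip6 subcluster, 119 and 286 CPM in the Ogn and Igfbp6 subcluster, 74.1 and 48.6 CPM in the low-depth subcluster, and 56.3 and 406 CPM in the C7 and C3 subcluster. The C7 and C3 subcluster held 22 control and 100 TP cells, so its control level rests on few UMIs. The highest level was in the Pi16 subcluster, at 709 CPM from 13 UMIs in 6 control cells and 738 CPM from 283 UMIs in 57 TP cells. In TP the C7 and C3 subcluster also held the highest Il1r1 level, at 505 CPM from 363 UMIs, against 113 CPM from 8 UMIs in control. With doublets kept, the DF-like ratio of Il1r2 was 1.98.

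Among immune cells, neutrophil-like cells held Il1r2 at 1719 CPM in control from 16 UMIs and 4778 CPM in TP from 268 UMIs, and no Il1r1 UMI in either library. Dendritic and Langerhans-like cells held 910 and 469 CPM, and the Cd207 subcluster within them 1870 CPM from 98 UMIs and 2542 CPM from 192 UMIs. That subcluster made up 26 of 49 control and 21 of 122 TP cells of the class, so the lower class level in TP stands beside a higher level within the subcluster. Outer bulge-like cells, which hold the follicle stem cell markers, had 18.5 CPM in control and 7.65 CPM in TP (27 and 56 UMIs, ratio 0.414, 0.257 to 0.682), in a class where 5.25% of genes were at least 2-fold lower.

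**Figure D4:**
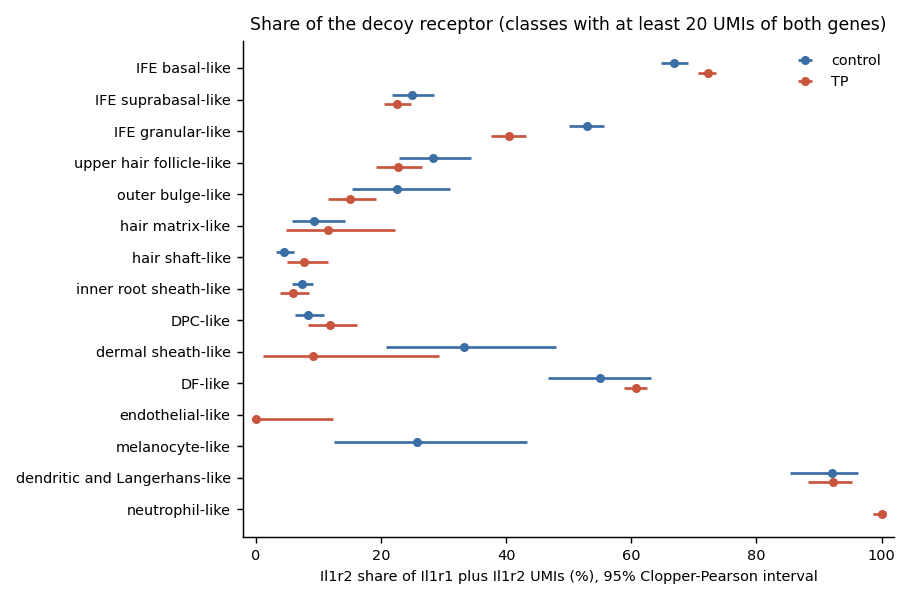
Share of Il1r2 among Il1r1 and Il1r2 UMIs in percent for each class with at least 20 UMIs of both genes, control and TP, with exact 95% intervals for counting error. Dendritic and Langerhans-like and neutrophil-like cells lie above 90%, IFE basal-like cells at 66.9% and 72.2%, and inner root sheath-like and hair shaft-like cells below 10%.

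The decoy receptor made up 34.4% of Il1r1 and Il1r2 UMIs in control (33.4 to 35.5) and 49.0% in TP (48.1 to 49.9). With control class shares the TP value was 33.4%. The classes split by this share more than the libraries did. It was 92.0% and 92.3% in dendritic and Langerhans-like cells and 268 of 268 UMIs in TP neutrophil-like cells (lower bound 98.6%). IFE basal-like cells had 66.9% and 72.2%, DF-like cells 55.0% and 60.7%, and suprabasal-like cells 25% and 22.6%. Shares were 8.32% and 11.8% in DPC-like, 7.29% and 5.88% in inner root sheath-like and 4.49% and 7.72% in hair shaft-like cells. Endothelial-like cells had 0 of 18 control and 0 of 28 TP UMIs (upper bound 12.3% in TP, and wider in control). IFE granular-like cells had 52.9% in control (50.1 to 55.7) and 40.4% in TP (37.6 to 43.1).

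IFE granular-like cells, the last living layer of the epidermis, had 4 members at least 2-fold lower in TP, among 17.4% of genes there. Il1r2 went from 60.1 to 17.5 CPM (679 and 511 UMIs, ratio 0.292, 0.26 to 0.328). Il33 went from 29.9 to 10.8 CPM (338 and 315 UMIs, ratio 0.361, 0.309 to 0.423). With doublets kept, Il33 (0.512), Il1r1 (0.541) and Il1b (0.569) were less than 2-fold lower, which left Il1r2 alone of the 4. Il1r1 went from 53.5 to 25.9 CPM (ratio 0.485, 0.435 to 0.54), but was less than 2-fold lower with the TMM factor (0.607), means of ln values (0.612) and clusters at resolution 2 (0.668), and Il1b is described above. The cluster was given this name by its leading genes, which held more granular markers, although its score was 2.99 for the granular and 3.23 for the suprabasal list. These 3 receptors and ligands were higher in basal-like than in granular-like cells of both libraries. The class itself differed between the libraries: its 11 granular markers summed to 961 CPM in control and 3915 CPM in TP, all 11 detected in both. The part of this difference in the 4 lower members, or in the higher Il1rn and Il18 levels of the class, was not tested.

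Il1rap, the co-receptor, gave 4589 UMIs in control (43.1 CPM) and 6338 in TP (47.8 CPM), a ratio of 1.11 (1.07 to 1.15) and 0.895 with control class shares, and no class pair reached 2-fold in either direction, though the IFE granular-like ratio was 0.301 once the level of inner root sheath-like cells had been subtracted. Among named classes with at least 50 cells in each library the highest levels were 91.4 and 88.1 CPM in IFE basal-like cells, 80.5 and 112 CPM in DF-like cells, 78.5 and 61.7 CPM in melanocyte-like cells and 65.2 and 54.9 CPM in DPC-like cells. In control the intervals of neighbours in this order overlapped, and in TP the DF-like cells stood apart. Smaller classes held more: neutrophil-like cells had 322 CPM from 3 UMIs and 428 CPM from 24 UMIs (274 to 637 in TP), and Schwann-like cells 89.7 CPM from 2 UMIs and 447 CPM from 21 UMIs (277 to 683 in TP).

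Il18, whose product drives interferon-γ in lymphocytes, came mostly from DPC-like cells in control and from IFE granular-like and DF-like cells in TP. The library gave 229 UMIs in control (2.15 CPM) and 699 in TP (5.27 CPM), a ratio of 2.45 (2.11 to 2.86). In control DPC-like cells supplied 55.9% of the UMIs, at 11.1 CPM from 128 UMIs. In TP their level was 8.48 CPM from 79 UMIs and their share of the library was 11.3%, while IFE granular-like cells supplied 40.2% and DF-like cells 20.5%. Within DPC-like cells the Fgf10 and Rspo3 cluster had 16.1 and 10.7 CPM and the Ndnf and Corin cluster 5.85 CPM from 32 UMIs and 1.53 CPM from 2 UMIs. The class ratio was 0.761 (0.568 to 1.02), and 1.11 with clusters at resolution 2. The Fgf10 and Rspo3 cluster held 1662 of 3999 control and 1027 of 1648 TP cells, the Ndnf and Corin cluster 2304 and 325. The Gpc5 and Dkk2 cluster held 33 and 296.

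The 5 classes named above were listed because Il18 was at least 2-fold higher there, so their shared direction carries no weight. All but IFE granular-like cells had under 20 control UMIs and passed the minimum only through TP. In IFE basal-like cells the ratio was 0.739 (0.369 to 1.52), and DPC-like cells are given above. IFE granular-like cells went from 3.19 CPM (36 UMIs) to 9.65 CPM (281 UMIs), a ratio of 3.03 (2.13 to 4.41), where 3.16% of genes reached 2-fold upward. The summed granular markers of this class also differed, as given above, and their part in this ratio was not tested. DF-like cells went from 2 UMIs (3.75 CPM) to 143 UMIs in 96 cells (27.9 CPM), a ratio of 7.45 (2.03 to 62.1). The Pi16 subcluster supplied 65 of these UMIs at 170 CPM, and without it the DF-like levels were 3.88 and 16.5 CPM (ratio 4.24, 1.14 to 35.7). Macrophage-like cells went from 4 UMIs (9.38 CPM) to 55 UMIs (45.4 CPM), a ratio of 4.84 (1.79 to 18.4), where 11.9% of genes reached 2-fold upward. Of the TP macrophage-like UMIs 45 lay in the subcluster led by Ccl8 and C1qa with 165 TP and 12 control cells, with levels of 84.0 CPM from 3 control UMIs and 50.4 CPM in TP. The summed macrophage markers were 4572 CPM in control and 21477 CPM in TP, and their part in the Il18 ratio was not tested. In suprabasal-like cells Il18 had 7 and 44 UMIs (ratio 2.08, 0.93 to 5.48, and 1.29 with clusters at resolution 2) and in upper hair follicle-like cells 3 and 24 UMIs (ratio 2.72, 0.826 to 14.1), and both intervals reach below 1. After thinning, an Il18 UMI was found in 6 of 1296 control (0.463%, 0.17 to 1.0) and 7 of 1649 TP IFE granular-like cells (0.424%, 0.171 to 0.873), so the thinned shares do not show the higher TP level given by the UMIs of the class. The shares before thinning were 2.01% and 8.67%.

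Il33, a nuclear cytokine of barrier epithelium, gave 1709 UMIs in control (16.1 CPM) and 3861 in TP (29.1 CPM), a ratio of 1.81 (1.71 to 1.92). IFE basal-like cells supplied 50.9% and 52.6% of them and stood apart from the next class in both libraries, at 122 and 137 CPM (870 and 2030 UMIs, ratio 1.12, 1.04 to 1.22). A UMI was found in 10.3% of thinned IFE basal-like cells in each library, against 0.274% and 0.237% of inner root sheath-like cells. The levels in the basal clusters were 149 and 166 CPM in the Krt14 and Krt15 cluster, 95.2 and 126 CPM in the Sox6 and Cdh13 cluster and 95 and 83.1 CPM in the cycling cluster. Suprabasal-like cells had 35 and 44.5 CPM. With control class shares the ratio over the library was near 1.

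The class in which Il33 differed most was the upper hair follicle-like keratinocytes, marked by Krt79 and Defb6. They had 17 UMIs in control (5.88 CPM) and 243 in TP (28.6 CPM), a ratio of 4.86 (2.97 to 8.48), where 2.98% of genes reached 2-fold upward. With under 20 control UMIs the pair passed the minimum only through TP, so setting it beside that share carries no weight. In TP 66 cells held a UMI, and 131 of the 243 UMIs lay in 5 cells, up to 47 in 1 cell. The share of thinned cells with a UMI was 0.305% in control and 1.2% in TP. DF-like cells had 15.0 CPM in control from 8 UMIs and 26.0 CPM in TP from 133 UMIs.

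Il1rl1, the IL-33 receptor known from mast cells, innate lymphoid cells and regulatory T cells, was rare. It gave 16 UMIs in control (0.15 CPM) and 53 in TP (0.4 CPM), a ratio of 2.66 (1.5 to 4.98). With the level of inner root sheath-like cells subtracted the ratio was 6.61. That level rests on 2 control UMIs and 0 TP UMIs, so the higher value carries no weight. In TP, 21 of the 53 UMIs came from dendritic and Langerhans-like cells (43.0 CPM, 4 UMIs in control), 11 from macrophage-like cells, 7 from DF-like cells (0 in control) and 6 from the T and innate lymphoid-like cells. Without neutrophil-like and dendritic and Langerhans-like cells the ratio was 2.15 (1.08 to 4.58).

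The rest of the pathway was read from 5 lists of genes. The lists were chosen with earlier results of these data known, so their counts beside the shares of all genes are description only. Of the 6 other ligands and antagonists, 4 were at least 2-fold higher in TP over all kept cells and 0 lower, against 10.0% and 15.3% of all genes, with a median log2 ratio of 1.91. The IL-36 genes, listed by their older symbols, led them: Il1f6 (IL-36α) had 5 and 162 UMIs (ratio 26.0, 10.9 to 81.2), Il1f8 (IL-36β) 13 and 246 UMIs (ratio 15.2, 8.72 to 28.9) and Il1f9 (IL-36γ) 301 and 1811 UMIs (ratio 4.83, 4.27 to 5.47). The fourth, Il1f5, which encodes the antagonist of the IL-36 receptor and is named after its values were seen, had the most UMIs of the 4, 1537 and 5582 (ratio 2.91, 2.75 to 3.09), and 48.4 and 125 CPM in IFE granular-like cells. In these cells Il1f9 had 14.7 and 39.4 CPM, Il1f6 0.266 and 4.53 CPM and Il1f8 0.354 and 5.7 CPM. The summed granular markers of these cells were 961 CPM in control and 3915 CPM in TP, and their part in these differences was not tested. Il1f6 and Il1f8 had under 20 control UMIs there and passed the minimum only through TP, so their class difference carries no weight. Il18bp, which encodes a soluble binder of IL-18, had a ratio of 0.789 (0.657 to 0.948). Within classes, with 20 UMIs asked of each library, 3 of 12 pairs of this list were higher and 0 lower. Of the pairs of any gene and class, 2.66% were higher and 6.34% lower.

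Of the 6 other receptors, 1 was higher and 0 lower, beside 10.0% and 15.3% of all genes, with a median log2 ratio of -0.13. Il18rap, a chain of the IL-18 receptor, had a ratio of 2.97 (1.93 to 4.73), and Il1rl2, the IL-36 receptor, of 1.52 (1.48 to 1.56). Il18r1, the other chain, had a ratio of 1.0. In T and innate lymphoid-like cells Il18r1 had 57.4 CPM in control and 256 CPM in TP (ratio 4.46, 2.59 to 8.05) and Il18rap 54.2 and 305 CPM (ratio 5.62, 3.27 to 10.2). Both had under 20 control UMIs there and passed the minimum only through TP, so these ratios carry no weight as calls. This class held 198 control and 90 TP cells, and the subcluster led by Gzmc and Xcl1 made up 29 and 43 of them. Il1rapl2 had a ratio of 0.569, Sigirr, which dampens IL-1 receptor signalling, of 0.821, and Il1rapl1 of 0.829. Within classes, with 20 UMIs asked of each library, 0 of 29 pairs of this list were higher and 1 lower. Of the pairs of any gene and class, 2.66% were higher and 6.34% lower.

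Of the 14 genes of receptor-proximal signalling, 1 was higher and 0 lower, where 10.0% and 15.3% of all genes were, with a median log2 ratio of -0.12. Irak3, which restrains the pathway, had a ratio of 2.05 (1.92 to 2.19), and Myd88, the adaptor, of 1.87 (1.72 to 2.03), as had Tollip. In DF-like cells, where its level was highest among classes with at least 50 cells in each library, Irak3 had 69.3 and 98.4 CPM. Tirap had a ratio of 0.513, Tab1 of 0.58 and Map3k7 of 0.727. Of the 18 inflammasome and processing genes with a UMI in both libraries, of 19 listed, 4 were higher and 0 lower, beside the same shares of all genes, with a median log2 ratio of 0.51. Gsdmc had a ratio of 5.81, Nlrp3, the sensor that activates caspase-1, of 3.02 (1.85 to 5.15) and Casp4 of 2.48. The fourth, Pycard, which encodes the adaptor ASC and is named after its values were seen, had a ratio of 2.03 (1.97 to 2.08), while Gsdme had 0.521 and Aim2 0.741. These ratios mix class makeup with levels within classes. In its highest such class Pycard had 213 and 276 CPM (IFE granular-like) and Nlrp3 4.69 and 5.78 CPM (macrophage-like). Casp4 had 28.2 and 242 CPM (macrophage-like) and Gsdmc 2.07 and 11.3 CPM (upper hair follicle-like). Casp4 and Gsdmc had under 20 control UMIs there, so their class differences carry no weight. Within classes, with 20 UMIs asked of each library, 3 of 138 pairs of the receptor-proximal list were higher and 4 lower. For the inflammasome and processing list 4 of 92 pairs were higher and 5 lower. Of the pairs of any gene and class, 2.66% were higher and 6.34% lower.

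The list of NF-kB feedback and IL-1 response genes held the most genes past 2-fold, with 12 of 15 higher and 1 lower over all kept cells, of 16 listed, against 10.0% and 15.3% of all genes, and a median log2 ratio of 1.46. Ptgs2, which makes prostaglandins, had a ratio of 9.94 (8.28 to 12.0), Cxcl2, a neutrophil chemokine, of 9.66 (8.71 to 10.7) and Mmp3, a matrix protease, of 7.65 (6.88 to 8.52). These ratios mix class makeup with levels within classes. Levels in the highest class with at least 50 cells in each library were closer for Mmp3, at 345 and 454 CPM in DF-like cells. For Ptgs2 they were 8.97 and 61.7 CPM in IFE basal-like cells. For Cxcl2 they were 30.5 and 349 CPM in macrophage-like cells, with under 20 control UMIs. Cxcl5, another neutrophil chemokine, went from 216 to 33 UMIs (ratio 0.123, 0.0823 to 0.177), and Saa3 had a ratio of 0.934. Within classes, genes with at least 20 UMIs in each library gave 65 pairs of a listed gene and a class, of which 28 were higher and 2 lower, against 2.66% and 6.34% of the pairs of any gene and class. The higher genes were 4 of 8 in DPC-like cells, where 1 was lower, 3 of 8 in IFE basal-like, 4 of 4 in hair shaft-like, 4 of 5 in hair matrix-like, 3 of 5 in inner root sheath-like, 2 of 3 in DF-like and 2 of 2 in macrophage-like, T and innate lymphoid-like and dermal sheath-like cells, beside 1 of 6 in IFE suprabasal-like and 1 of 5 in upper hair follicle-like cells. None of 6 was higher in IFE granular-like cells, where 1 was lower, and none of 3 in lymphatic endothelial-like or of 2 in endothelial-like, melanocyte-like and outer bulge-like cells. With the minimum on the sum of both libraries 62 of 117 pairs were higher, 34 of them with under 20 UMIs in control, and that count carries no weight. The list was chosen with earlier results of these data known, and the 65 pairs repeat the same genes over classes of the same libraries. Neither the count over all kept cells nor that of the pairs therefore carries weight against the shares of all genes. These genes respond to many signals besides IL-1. With control class shares, 14 of all the pathway genes were at least 2-fold higher, against 22 without.

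**Figure D5:**
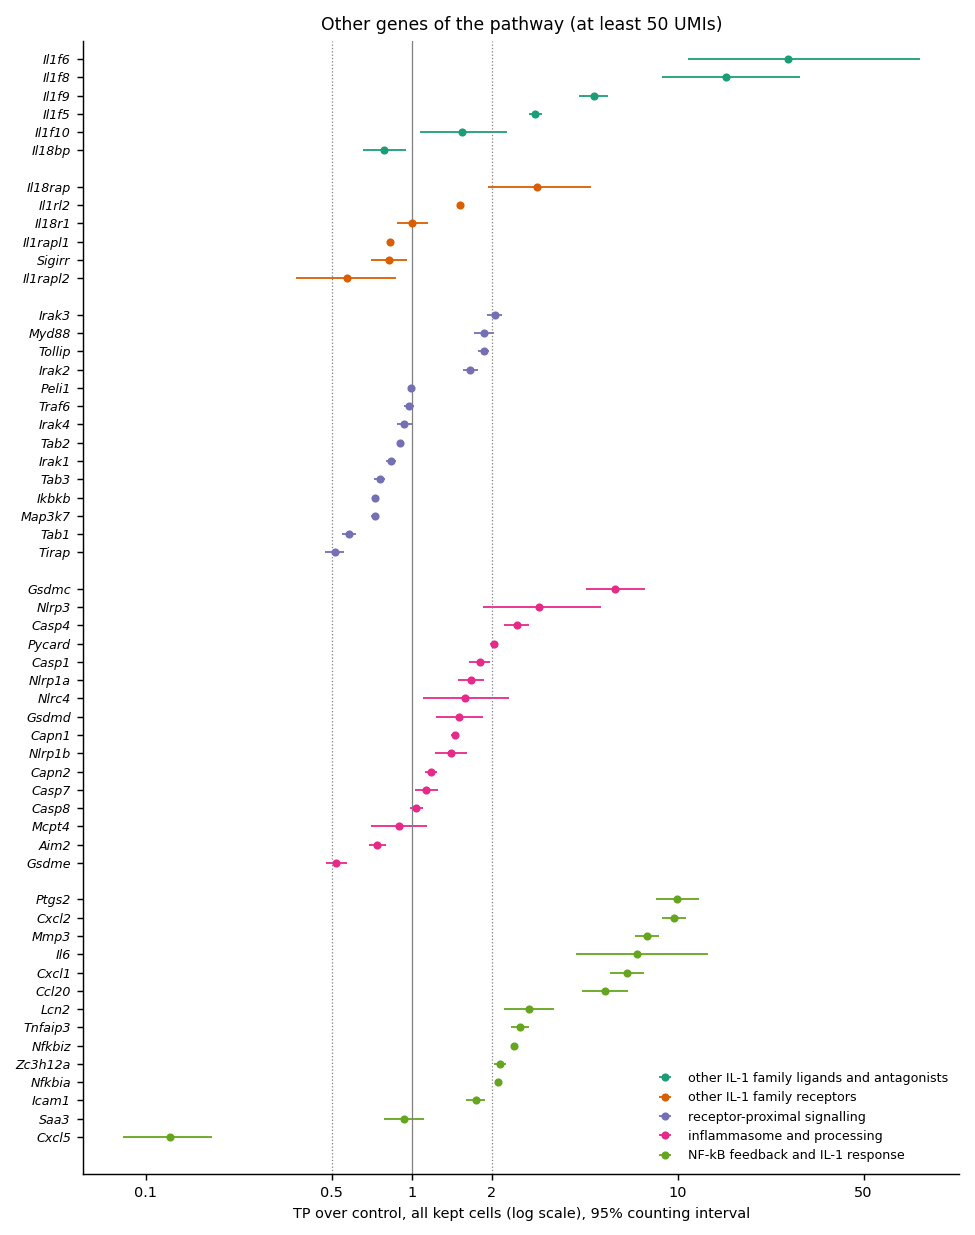
TP over control ratio of the other pathway genes shown, with at least 50 UMIs over all kept cells on a log axis, with 95% intervals for counting error, coloured by list. The NF-kB feedback and IL-1 response list lies mostly beyond 2, with Cxcl5 at 0.123, and the receptor and receptor-proximal lists have 1 gene each beyond 2.

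Genes whose levels followed each member most closely over classes were found by Pearson's correlation of log2(CPM + 1) over 32 points, the 16 classes with at least 50 cells in each library, with no p-value since the points share libraries and depth. Neutrophil-like and dendritic and Langerhans-like cells, where Il1b and Il1r2 stood highest, were not among these classes. They were Ccl24 and Cd209g for Il1b (0.884 each), Ly6d (0.887) and Serpinb2 (0.874) for Il1rn, Htra1 (0.817) and Npas2 (0.804) for Il1r1, and Sema3c (0.869) and Adamts14 (0.842) for Il1r2. Saysd1 (0.883) and Pter (0.882) were nearest to Il1rap, Reps2 (0.805) and Guca1a (0.786) to Il18, and Aknad1 (0.821) and Ndufa4l2 (0.818) to Il33. For the sparse members these were Gm44613 (0.795) and Sprr2h (0.784) for Il1a and Gm26740 (0.902) and Samsn1 (0.869) for Il1rl1.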

How the data were processed

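The control and TP libraries, each a pool of 15 mice, were analysed. The authors ran Cell Ranger 8.0.1 on the mm10 genome, per the submitters' notes, and the deposited values are whole-number counts of UMIs per gene and barcode, not normalized and from a stage ahead of the study's own filters. Barcodes were kept here if they held 200 to 8000 genes and their mitochondrial share did not exceed 10%. In place of DoubletFinder its procedure was rewritten (25% artificial doublets, 30 components, nearest 1%), and the 7.5% of barcodes with the highest share were removed, 3168 in control and 1503 in TP. Seurat 5.3.0 (R 4.3.3) gave 2000 variable genes per library, without the members and the pathway genes, reciprocal PCA integration in place of the study's default, 30 components and Louvain clusters at resolution 1. Immune, vessel and fibroblast clusters were clustered again with leidenalg 0.10.2 at resolution 0.6. Names followed the marker list with the best score, or, among lists within 0.25 of it, the one with most markers among the 10 leading genes, given a score of 1.25 or more and 3 detected markers, so 2 clusters, IFE granular-like and 1 hair shaft-like, took the name of the second score. The score and the second clustering were chosen after clusters had been seen. Unnamed clusters held 9062 control and 2003 TP cells.

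UMIs were summed per class and given per 1000000 UMIs of the class. Levels carry exact Poisson, ratios exact conditional binomial and shares Clopper-Pearson intervals at 95%, none of which covers more than counting error. Shares of cells were taken after thinning each cell to 1000 UMIs, leaving out 5362 control and 869 TP cells. A gene was counted as higher or lower at 2-fold, and pairs needed 20 UMIs in both libraries together and 50 cells in each. In an alternative the level in inner root sheath-like cells of the same library was subtracted. edgeR 4.0.16 gave TMM factors for an alternative only, 0.847 over all kept cells. The ratio and interval computations alone were tested on simulated data, as UMI sums for all kept cells and for IFE basal-like cells. Named genes were the 9 members, up to 3 with the largest rise and 3 with the largest fall of each pathway list among genes with at least 50 UMIs, and the 2 nearest genes of each member among genes with at least 200 UMIs, beside marker and leading genes of clusters. 1 gene that this rule also names is not reported here. The members and lists were chosen with earlier results of these data known. Promoters and gene positions are from RefSeq GRCm38.p6.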

Additional observations from a re-analysis of the deposited data

How the results depend on the processing

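No paired analysis was possible because each group held 1 library, and for the same reason no replicate could be left out. The alternatives that leave out classes, subclusters or leading cells, and all alternatives of the 2 shares, were chosen after seeing the data. The count of 5 members at least 2-fold higher became 0 with the class shares of the control in both libraries and 3 without inner root sheath, hair matrix and hair shaft-like cells. The 22 other pathway genes became 14 with control class shares. The 10 higher class pairs became 3 with 20 UMIs asked of each library, also chosen after seeing the data, and 6 without the 5 leading cells of each class and library. The edgeR TMM factor adds 0.24 to every log2 ratio over all kept cells and gave 7 members, 14 higher and 5 lower pairs, and means over cells of ln(scaled counts + 1) gave 7 members, 15 higher and 4 lower pairs. Of the ratios recomputed under the alternatives, 5 of 97 over all kept cells and 57 of 589 in classes crossed 1. Over all kept cells these were Il1r1 as given above, and with control class shares Il1r2 (0.792) and Il1rap (0.895). Among the pairs called at 2-fold, Il1b turned direction in IFE suprabasal-like cells with clusters at resolution 2 (0.653) and in IFE granular-like cells without the 5 leading cells (1.71).

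The decoy share in control moved from 34.4% to 27.3% with means of ln values and 44.4% without the 3 hair classes. In TP it moved from 49.0% to 47.6% with a mitochondrial limit of 20%, 41.6% with means of ln values, 33.4% with control class shares, 47.8% without neutrophil-like cells, 46.9% without dendritic and Langerhans-like cells as well, and 51.8% without the hair classes. The antagonist share in control moved from 90.8% to 92.3% in cells with at least 1000 UMIs, 95.6% with means of ln values, 95.3% without neutrophil-like cells, 95.3% without both immune classes and 89.6% without the hair classes. In TP it moved from 77.8% to 80.5% with doublets kept, 78.9% in cells with at least 1000 UMIs, 89.7% with means of ln values, 88.8% with control class shares, 92.1% without neutrophil-like cells and 96.0% without both immune classes. Subtracting the level of inner root sheath-like cells gave 4 members, of 8 with a value, 11 higher and 9 lower pairs, and left 17 of 48 class ratios outside their counting interval. With doublets kept, IFE granular-like ratios were 0.569 for Il1b, 0.541 for Il1r1 and 0.512 for Il33, and the suprabasal-like ratio of Il18 was 1.43. Means of ln values gave 0.719 for Il1b in IFE granular-like cells. The cause of these changes was not tested beyond what each alternative leaves out. Depth limited Il1a, Il1rl1 and class ratios that rest on under 10 control UMIs.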

Other observations

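The barcodes removed for a mitochondrial share over 10% numbered 3465 in control and 5871 in TP. At most those with a share up to 20% enter the results above, and only where that limit was set. Il1b had 0 UMIs in the control barcodes, which allows up to 0.741 CPM, and 29 UMIs in the TP barcodes (2.99 CPM, 2.0 to 4.29). Il1rn had 13.1 CPM in control and 30.4 CPM in TP, Il1r1 42.2 and 55.9 CPM, Il1r2 10.9 and 15.6 CPM, and Il33 5.43 and 19.5 CPM.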
